A study of Homo sapiens with 6 samples.

Results

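The genes described here are 60 neighbours on chromosome 16 that lie between HSF4 and TXNL4B in the gene order, around the cadherin gene CDH1, in band 16q22. They were selected on the difference between HS3ST2-transfected and control cells in these same arrays, so their differences are given as a description of the members and carry no test of the stretch. Of the 60 genes, 59 had at least 1 probe set that GEO's platform annotation assigns to that gene alone, out of 19775 genes measured in all. NUTF2, a nuclear import factor, had only probe sets shared with a pseudogene and has no value of its own. The current symbol of FAM65A is RIPOR1.

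All samples are MDA-MB-231, an established human breast cancer cell line that lacks the oestrogen receptor and has a mesenchymal appearance. The 3 control arrays come from cells transfected with a control vector, and the 3 others from cells transfected with an expression plasmid for HS3ST2, an enzyme that adds a sulfate to heparan sulfate chains. Both groups therefore went through a transfection. The labels name neither a promoter, a time after transfection, nor a selection or cloning step, and do not say whether replicates were separate cultures, so error terms measure the spread between these arrays.

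Band 16q22 is gene-dense and mixes housekeeping genes with a few tissue-restricted ones. Its best-known genes in breast tissue are CDH1, which encodes the epithelial adhesion protein E-cadherin and is often lost in lobular breast cancer, and CTCF, which encodes the DNA-binding protein that anchors chromatin loops and insulates neighbouring genes. Neighbouring genes can share a promoter or a chromatin domain, but the products of such a stretch seldom act in 1 pathway.

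Values are log2, already centred so that the median of the 6 arrays is 0 for each probe set. Differences between arrays can be read, but levels of genes cannot be compared and no marker can show which cell types are present. The plasmid's target did not check the labels. The HS3ST2 probe set was at -0.22, 0.17 and -0.11 in the control arrays and at 0.16, 0.04 and -0.04 in the HS3ST2-labelled arrays, so the groups overlapped (difference 0.11 ± 0.10, SE, 95% interval -0.13 to 0.35). Whether it matches the plasmid's transcript is not given, and the arrays are called HS3ST2-labelled below. HS3ST2 replicate 3 stood apart in the ribosomal RNA control probe sets, whose median was 1.42 there and between -0.30 and 0.24 on the other arrays. Of 8 luminal markers 1 was higher and 1 lower, as for 6 mesenchymal markers, and of 4 leukocyte markers measured LCP1 was higher (0.78). Of 6 fibroblast markers 0 were called by limma (0 at an unadjusted p under 0.05). The part of any of these in the members' differences was not tested. In bulk RNA, fewer cells of a kind and less RNA per cell cannot be told apart.

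The members were more often higher than lower in the HS3ST2-labelled arrays, by small amounts. A gene was called changed at a Benjamini-Hochberg adjusted p under 0.05 over all genes by limma. Of the 59 measured members, 18 were called higher, 1 was called lower and 40 were not called. Over all genes 11.5% were called higher and 13% lower, but since the same contrast chose the members, nothing is read from that comparison. The called rises ran from 0.18 to 0.76 log2 with a median of 0.31, and 16 of the 18 were under 0.5 log2. The median difference over all measured members was 0.14, against 0.0088 over all genes.

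Most members that were not called also had a positive difference. Of the 40, 26 lay above 0 and 14 below. In 30 members (50.8%), 12 of them not called, all 3 HS3ST2-labelled arrays lay above all 3 control arrays. Over all genes 19.5% did so, but here too the choice of members leaves nothing to be read from the comparison. The median member value was -0.07 in each control array, against 0.07, 0.06 and 0.05 after HS3ST2-labelled transfection. The standard error of a member was 0.06 at the median and 0.25 at most, for CALB2, and the 95% interval of a member reached 0.14 to either side of its difference at the median. A difference of the typical size was therefore close to what 3 arrays a group could resolve. Without HS3ST2 replicate 3, 12 members were called higher and 1 lower, and 9.0% of all genes were called higher. As many members, 12, were called higher without HS3ST2 replicate 1 or without control replicate 2.

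**Figure D1:**
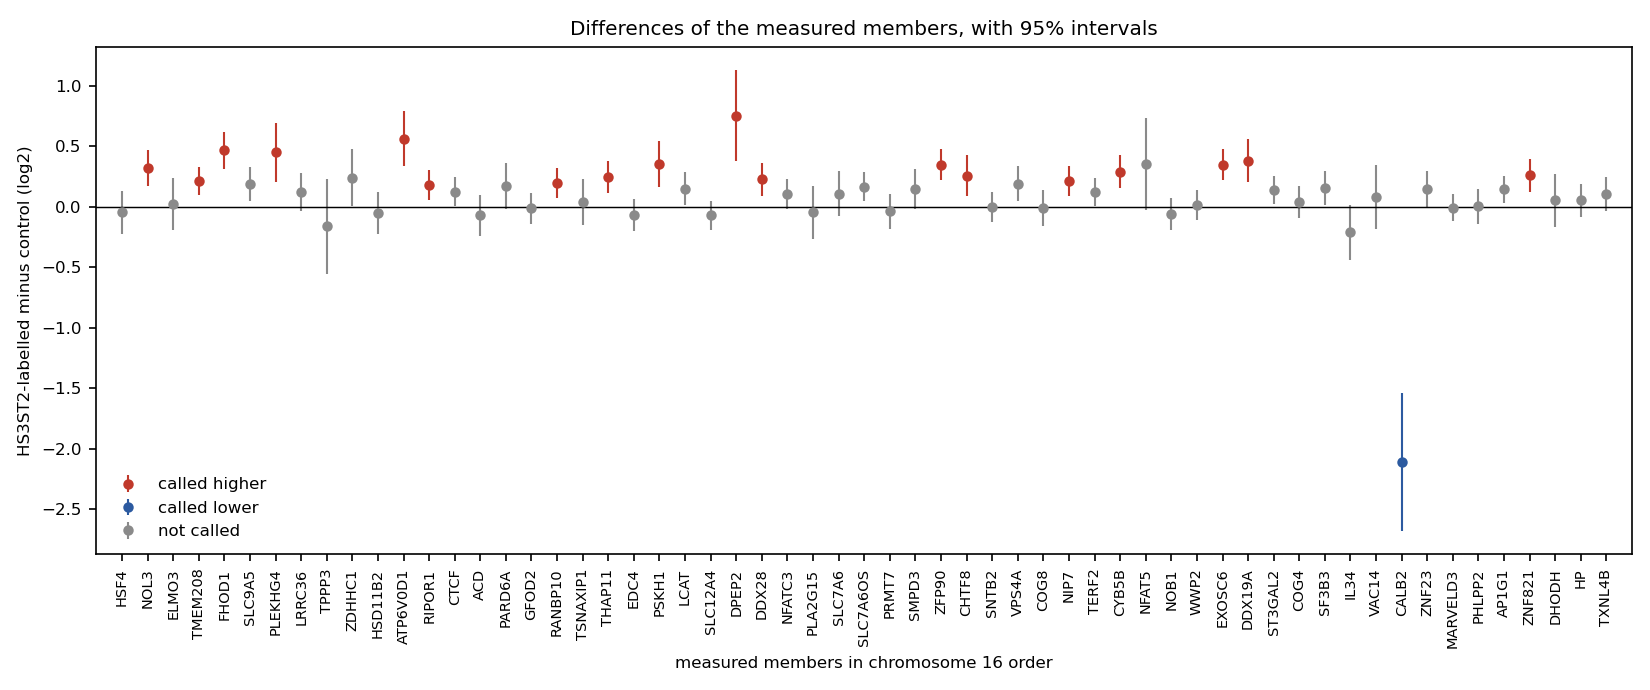
Log2 difference, HS3ST2-labelled minus control, of each of the 59 measured members in chromosome 16 order, with 95% intervals (n = 3 arrays per group). Red points are the 18 members called higher, the blue point is CALB2, the member called lower (-2.11), and grey points are the 40 not called, most of them above 0.

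Called rises occurred in each part of the stretch and were fewest in the last. Of the 20 members from HSF4 to THAP11, 8 were called higher (40%). Of the next 20, from EDC4 to CYB5B, 7 were called higher (35%). Of the 19 from NFAT5 to TXNL4B, 3 were called higher (15.8%) and 1 lower. The medians were 0.18, 0.15 and 0.08, and the differences between parts were not tested. Over all genes 11.5% were called higher, but since the same contrast chose the members, nothing is read from that comparison. The longest run of measured members in a row with a positive difference was 7, from NOL3 to LRRC36. Both ends of the stretch were not called. HSF4, a heat shock factor needed in the lens, was at -0.04 ± 0.08 (SE), and TXNL4B, a splicing-related protein, was at 0.11 ± 0.06.

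DPEP2, a membrane dipeptidase that acts on leukotrienes, had the largest rise. Its control arrays were at -0.19, -0.52 and -0.22 and its HS3ST2-labelled arrays at 0.19, 0.31 and 0.82. The groups did not overlap, and HS3ST2 replicate 3, which also stood apart in ribosomal RNA, was far above the other two. The difference was 0.76 ± 0.16 log2 (SE), or 1.69-fold, and 0.57 without that array. The part of that array's ribosomal RNA in the value was not tested.

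ATP6V0D1, a subunit of the proton pump that acidifies lysosomes, came second. The control arrays were at -0.15, -0.53 and -0.35 and the HS3ST2-labelled arrays at 0.31, 0.21 and 0.15. The groups were clearly apart, with most of the spread among control arrays, and the difference was 0.57 ± 0.10 log2, or 1.48-fold. It rested on 1 probe set, as did those of DPEP2, FHOD1, PLEKHG4 and PSKH1.

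Of 9 genes of the cytoskeleton, cell polarity and junctions, 3 were called higher (33.3%, beside 11.5% of all genes). The median of the 9 was 0.04. The role lists were written with earlier results known, so nothing is read from such shares, here or below. FHOD1, a formin that assembles actin filaments, was at -0.26, -0.15 and -0.19 in control arrays and at 0.15, 0.30 and 0.34 in HS3ST2-labelled arrays, a rise of 0.47 ± 0.07. PLEKHG4 was at -0.07, -0.27 and -0.17 against 0.48, 0.29 and 0.07, a rise of 0.45 ± 0.11. Its HS3ST2-labelled arrays differed more among themselves than those of FHOD1, and its call was lost without control replicate 2, where the difference was 0.40. RANBP10, a scaffold protein that binds tubulin, rose by 0.20 ± 0.05, a call lost when any 1 array other than HS3ST2 replicate 3 was left out. The other 6 were not called. PARD6A, part of the polarity complex with atypical protein kinase C, was at 0.17 ± 0.08, and TPPP3, a tubulin-binding protein, was at -0.16 ± 0.17, with HS3ST2-labelled arrays at -0.22, 0.30 and -0.43. ELMO3 (0.02 ± 0.09), TSNAXIP1 (0.04 ± 0.08), the tight junction protein MARVELD3 (-0.01 ± 0.05) and the syntrophin SNTB2 (-0.0024 ± 0.05) lay near 0.

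Genes of RNA processing and ribosome assembly gave the highest count of rises, 4 of 8, with a median of 0.19. That is 50%, beside 30.5% of members and 11.5% of all genes. The role lists were written with earlier results known, so nothing is read from this order. DDX19A, an RNA helicase related to an mRNA export factor, was at -0.16, -0.15 and -0.20 in control arrays and at 0.36, 0.06 and 0.22 in HS3ST2-labelled arrays, a rise of 0.38 ± 0.08. The rise came from its 2 probe sets ending in _s_at (0.69 and 0.49), while the third gave -0.030, so without _s_at probe sets the sign turned. A close paralogue, DDX19B, lies beside it, and the split of signal between the copies is uncertain. A probe set that names both was at 0.19 ± 0.06 and was not called. EXOSC6, a subunit of the RNA exosome, was at -0.16, -0.26 and -0.16 against 0.20, 0.11 and 0.15, a rise of 0.35 ± 0.06 with little spread in either group. DDX28, a helicase for mitochondrial ribosome assembly, rose by 0.23 ± 0.06, and NIP7, a factor for the large ribosomal subunit, by 0.21 ± 0.05. The call of DDX28 was lost without 4 of the 6 arrays in turn, as was that of NIP7. DDX28 was also not called without _x_at and _s_at probe sets, where its difference was 0.17. The splicing factor SF3B3 was at 0.16 ± 0.06 with groups that did not overlap. The decapping scaffold EDC4 (-0.07 ± 0.06) and NOB1, an endonuclease for the small ribosomal subunit (-0.06 ± 0.06), lay below 0 with overlapping groups.

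Among 9 regulators of transcription and chromatin, 3 were called higher (33.3%, beside 11.5% of all genes). ZFP90, a zinc finger repressor, was at -0.11, -0.18 and -0.23 in control arrays and at 0.21, 0.14 and 0.19 in HS3ST2-labelled arrays, a rise of 0.35 ± 0.06. ZNF821, another zinc finger protein, rose by 0.26 ± 0.06, and THAP11, which binds promoters of growth genes, by 0.25 ± 0.06. The last 2 calls were each lost when 1 array was left out, HS3ST2 replicate 2 for ZNF821 and HS3ST2 replicate 3 for THAP11.

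CTCF itself was not called. It was at -0.11, -0.03 and -0.07 in control arrays and at 0.07, 0.03 and 0.07 in HS3ST2-labelled arrays, so the groups did not overlap, with a difference of 0.13 ± 0.05 (interval 0.01 to 0.24). The calcium-regulated factor NFATC3 was similar in size at 0.11 ± 0.05 over 6 probe sets. NFAT5, the osmotic stress factor of the same family, was at 0.09, -0.13 and -0.51 against 0.04, 0.05 and 0.44, with overlapping groups and a difference of 0.36 ± 0.16. Without control replicate 3 the difference was 0.19, and without HS3ST2 replicate 3 it was 0.22. Its probe sets behaved differently. The probe set without an _s_at ending was at -0.15, -0.18 and -0.24 against 0.15, 0.17 and 0.24 and was called higher, while the other two gave 0.48 and 0.20 and were not called, and control replicate 3 of the former reached -1.01. ZNF23, a zinc finger protein (0.15 ± 0.07), and PRMT7, an arginine methyltransferase (-0.04 ± 0.06), were not called.

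Both members of the shelterin complex, which caps telomeres, stayed below the threshold. TERF2 was at -0.08, -0.07 and -0.05 in control arrays and at 0.05, 0.09 and 0.05 in HS3ST2-labelled arrays, a difference of 0.12 ± 0.05 with groups apart. ACD was at -0.07 ± 0.07 with groups that overlapped, and the difference between the 2 genes was not tested. CHTF8, part of the clamp loader for sister chromatid cohesion, rose by 0.26 ± 0.07. Its call was lost without any 1 array other than control replicate 1.

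Of 7 measured genes for membrane traffic, ATP6V0D1 and TMEM208 were called higher (28.6%, beside 11.5% of all genes). TMEM208, an endoplasmic reticulum protein for membrane protein insertion, was at -0.09, -0.14 and -0.12 against 0.13, 0.09 and 0.09, a rise of 0.22 ± 0.05. Arrays within a group differed little, yet the call was lost without HS3ST2 replicate 1 or control replicate 2. VPS4A, the ATPase that recycles ESCRT filaments, was at 0.19 ± 0.06, and AP1G1, a clathrin adaptor subunit, at 0.14 ± 0.05, both with groups apart and neither called. The Golgi tether subunits COG8 (-0.01 ± 0.06) and COG4 (0.04 ± 0.06) and the lipid kinase scaffold VAC14 (0.08 ± 0.12) were not called.

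Of 9 enzymes 2 were called higher (22.2%, beside 11.5% of all genes), and the 9 had a median of 0.14. CYB5B, a cytochrome of the outer mitochondrial membrane, was at -0.07, -0.16 and -0.13 against 0.24, 0.17 and 0.09, a rise of 0.29 ± 0.06, and DPEP2 was the other. LCAT, which esterifies plasma cholesterol (0.15 ± 0.06), the sialyltransferase ST3GAL2 (0.14 ± 0.05) and the sphingomyelinase SMPD3 (0.15 ± 0.07) were not called. HSD11B2, which inactivates cortisol (-0.05 ± 0.08), the lysosomal phospholipase PLA2G15 (-0.04 ± 0.10), GFOD2 (-0.01 ± 0.06) and DHODH of pyrimidine synthesis (0.05 ± 0.10) lay near 0. The 3 transporters were not called. They were the sodium-proton exchanger SLC9A5 (0.19 ± 0.06), the amino acid carrier SLC7A6 (0.11 ± 0.08) and the potassium-chloride carrier SLC12A4 (-0.07 ± 0.05), and the last had all 3 HS3ST2-labelled arrays below the control arrays.

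Among 5 signalling enzymes and regulators, 2 were called higher (40%, beside 11.5% of all genes). PSKH1, a Golgi-associated kinase, was at -0.30, -0.06 and -0.14 against 0.26, 0.06 and 0.24, a rise of 0.35 ± 0.08. The gap between its groups was narrow, and its call was lost without HS3ST2 replicate 1 (difference 0.32) or HS3ST2 replicate 3 (0.33). RIPOR1 rose by 0.18 ± 0.05, the smallest called rise, and that call was lost without any 1 array. The palmitoyltransferase ZDHHC1 (0.24 ± 0.10, called at 0.34 without control replicate 1), the ubiquitin ligase WWP2 (0.02 ± 0.05) and the Akt phosphatase PHLPP2 (0.0038 ± 0.06) were not called. Of the 3 remaining members, NOL3, a repressor of apoptosis, was at -0.07, -0.24 and -0.23 against 0.20, 0.08 and 0.14, a rise of 0.32 ± 0.07. LRRC36 was at 0.12 ± 0.07 and SLC7A6OS at 0.17 ± 0.05.

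The largest change among the members was a fall. CALB2 encodes calretinin, a calcium-binding protein of neurons and mesothelium that some breast cancers express. It was at 0.86, 0.94 and 0.79 in control arrays and at -0.79, -1.04 and -1.91 in HS3ST2-labelled arrays. The groups lay far apart, and HS3ST2 replicate 3, which also stood apart in ribosomal RNA, was the lowest. CALB2 fell by 2.11 ± 0.25 log2, a level 4.32-fold lower. Without that array it fell by 1.78 log2. It had 1 probe set, which ends in _s_at. IL34, a ligand of the macrophage colony-stimulating factor receptor, was at 0.39, 0.03 and 0.03 against -0.11, -0.03 and -0.04. Its groups did not overlap, but the difference of -0.21 ± 0.10 was not called, and it was -0.09 without control replicate 1. HP, which encodes haptoglobin and has a near-identical copy beside it, was at 0.05 ± 0.06. A coordinated rise thus describes a minority of members by their calls, and the largest change among them went the other way.

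**Figure D2:**
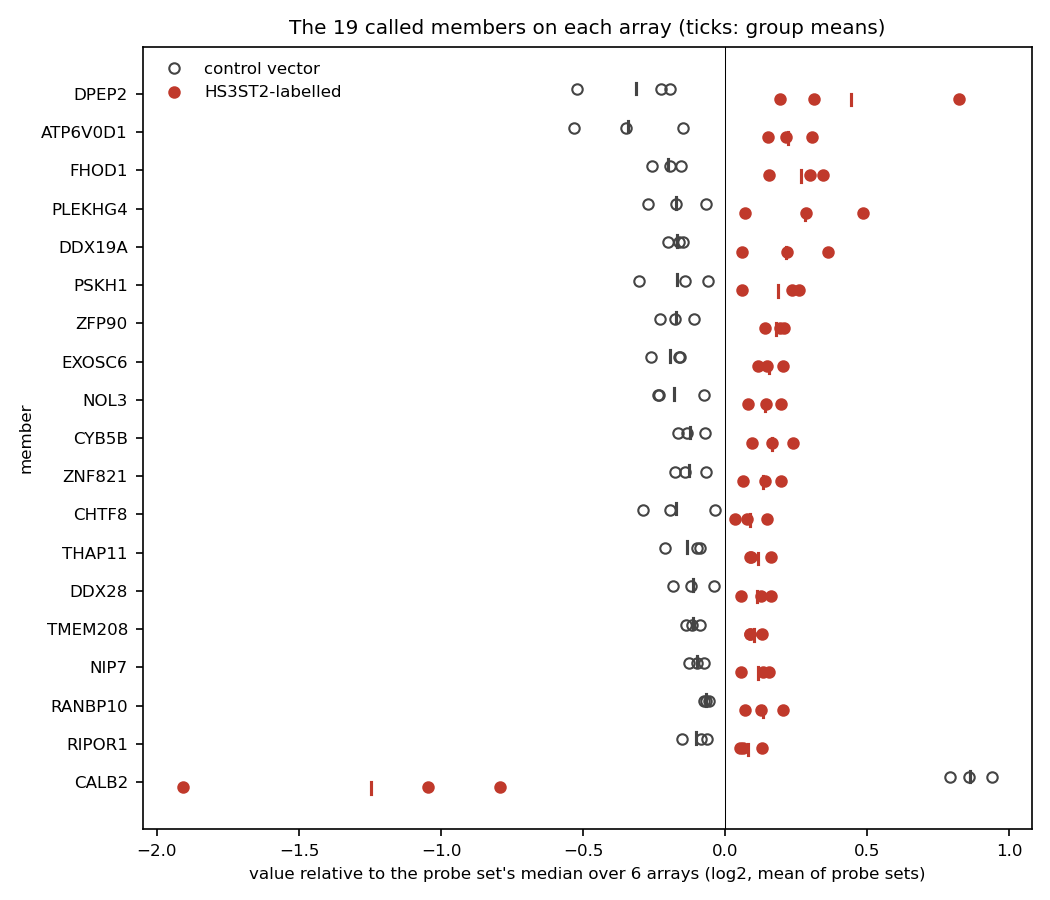
Value of the 19 called members on each of the 6 arrays (log2, relative to the median of the 6 arrays), with control vector arrays as open circles, HS3ST2-labelled arrays as filled circles and ticks at the group means. The groups are apart for all 19, and the group means are close for RIPOR1 (-0.10 and 0.08) and far apart for CALB2 (0.86 and -1.25).

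Probe sets of 1 gene often disagreed on the size of the change. The 59 members had 131 probe sets, of which 29 were called higher and 2 lower, and over all 54613 probe sets 7.90% were called higher and 8.98% lower. Of the 32 members with more than 1 probe set, 15 had all of them above 0, 1 (SLC12A4) had all below 0 and 16 were mixed. In 17 of the 32 at least 1 probe set was called, and no member had probe sets called in both directions. SLC9A5, SLC7A6, SLC7A6OS, SMPD3, NFAT5 and ST3GAL2, not called as genes, each had 1 probe set called higher. The probe sets of NOL3 agreed closely, from 0.27 to 0.35. Those of SMPD3 were at 0.55 and -0.26, of ZDHHC1 at 0.62 and -0.14, and of DHODH between -0.33 and 0.43, so each of these means averages readings of opposite sign. The other probe set called lower, besides that of CALB2, was 1 of 7 for SNTB2 (-0.46). A shared probe set, which names both NUTF2 and its pseudogene, was called higher (0.31 ± 0.07).

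**Figure D3:**
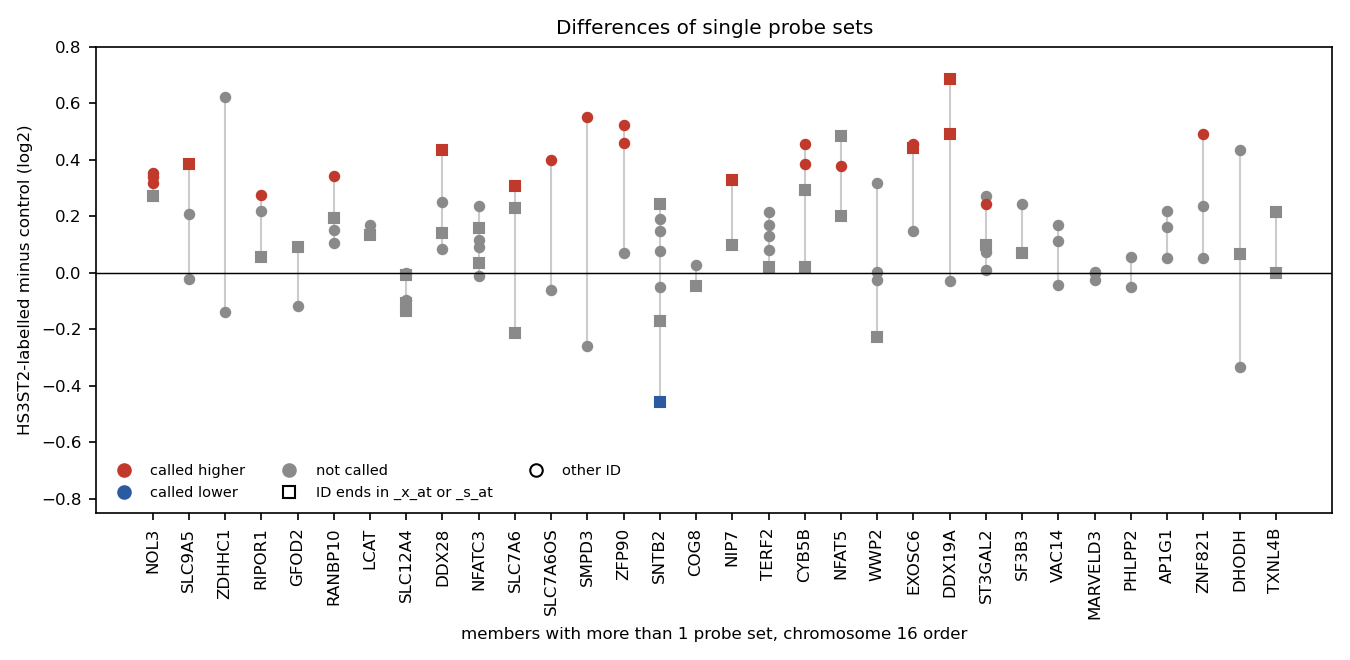
Log2 difference of single probe sets for the 32 members with more than 1 probe set, in chromosome 16 order. Squares mark IDs ending in _x_at or _s_at, red is called higher, blue called lower (SNTB2, -0.46) and grey not called, and the spread within a gene is narrow for NOL3 (0.27 to 0.35) and wide for SMPD3 and DHODH.

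Measured genes of the same stretch that are not among the members were also more often higher than lower. There were 40 of them, of which 10 were called higher (25%) and 3 lower (7.5%), and 32 had a positive difference (80%). Over all genes 11.5% were called higher and 13% lower, and 52.3% had a positive difference. Because the stretch was chosen on this same contrast, these shares are a description only. The median of the 40 was 0.14, equal to that of the members to that precision. CDH3, which encodes P-cadherin, had the largest change, from -1.07, -1.36 and -1.10 in control arrays to 1.07, 1.25 and 1.09, a rise of 2.32 ± 0.09. PSMB10, an immunoproteasome subunit, rose by 0.76 ± 0.07, VAC14-AS1 by 0.47 ± 0.10 and the ESCRT protein IST1 by 0.46 ± 0.07, while NQO1, a quinone reductase, fell by 0.55 ± 0.06.

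CDH1, the best-known gene of the stretch, was at -0.08, -0.36 and -0.25 in control arrays and at 0.33, 0.07 and 0.17 in HS3ST2-labelled arrays. The groups did not overlap, and the rise of 0.42 ± 0.09 was within the range of the called members and far below that of its neighbour CDH3. Its 2 probe sets differed in size. One rose by 0.61 ± 0.09, with groups apart, and the other was at 0.22 ± 0.14, with overlapping groups, and was not called. Of 7 measured cadherin genes of chromosome 16, CDH11 (1.98 ± 0.06) and CDH16 (0.22 ± 0.06), which lie before HSF4, were also called higher. CDH5 (-0.12 ± 0.11), CDH8 (-0.06 ± 0.08) and CDH15 (0.05 ± 0.09) were not called.

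Genes called higher were also frequent on either side of the stretch. Of the 60 measured genes just before HSF4, 20 were called higher and 2 lower, and of the 60 just after TXNL4B, 14 were called higher and 3 lower, with medians of 0.05 and 0.07. The members' share called higher was 30.5%, against 33.3% and 23.3% in these flanks. All of chromosome 16 was then divided into 28 consecutive blocks of 30 measured genes, the last with 15. The 4 blocks that hold members had medians of 0.10 to 0.15.

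The sign of the blocks changed part-way along the chromosome. The first 12 blocks, from the tip of the short arm to ZG16, had 17 of 360 genes called higher and 76 lower, and 11 of the 12 medians were below 0. The next 16 blocks, from KIF22 to the end of the long arm, had 117 of 465 genes called higher and 18 lower, and all 16 medians were above 0. Without the HSF4 to TXNL4B stretch, 89 of the 366 later genes were called higher (24.3%) and 14 lower. Medians of the later blocks without members ran from 0.02 in block 19 to 0.15 in block 16, which reached the top of the range of the member blocks. This boundary was placed after the values were seen, and no test was made of it. Across the 22 autosomes and X, the median difference ran from -0.03 on chromosome 17 to 0.09 on chromosome 13, with 0.03 on chromosome 16. The share of members called higher lay between those of the 2 flanks, while the members' median of 0.14 was above both flank medians, and neither gap was tested. Since the same contrast chose the members, nothing is read from either gap.

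**Figure D4:**
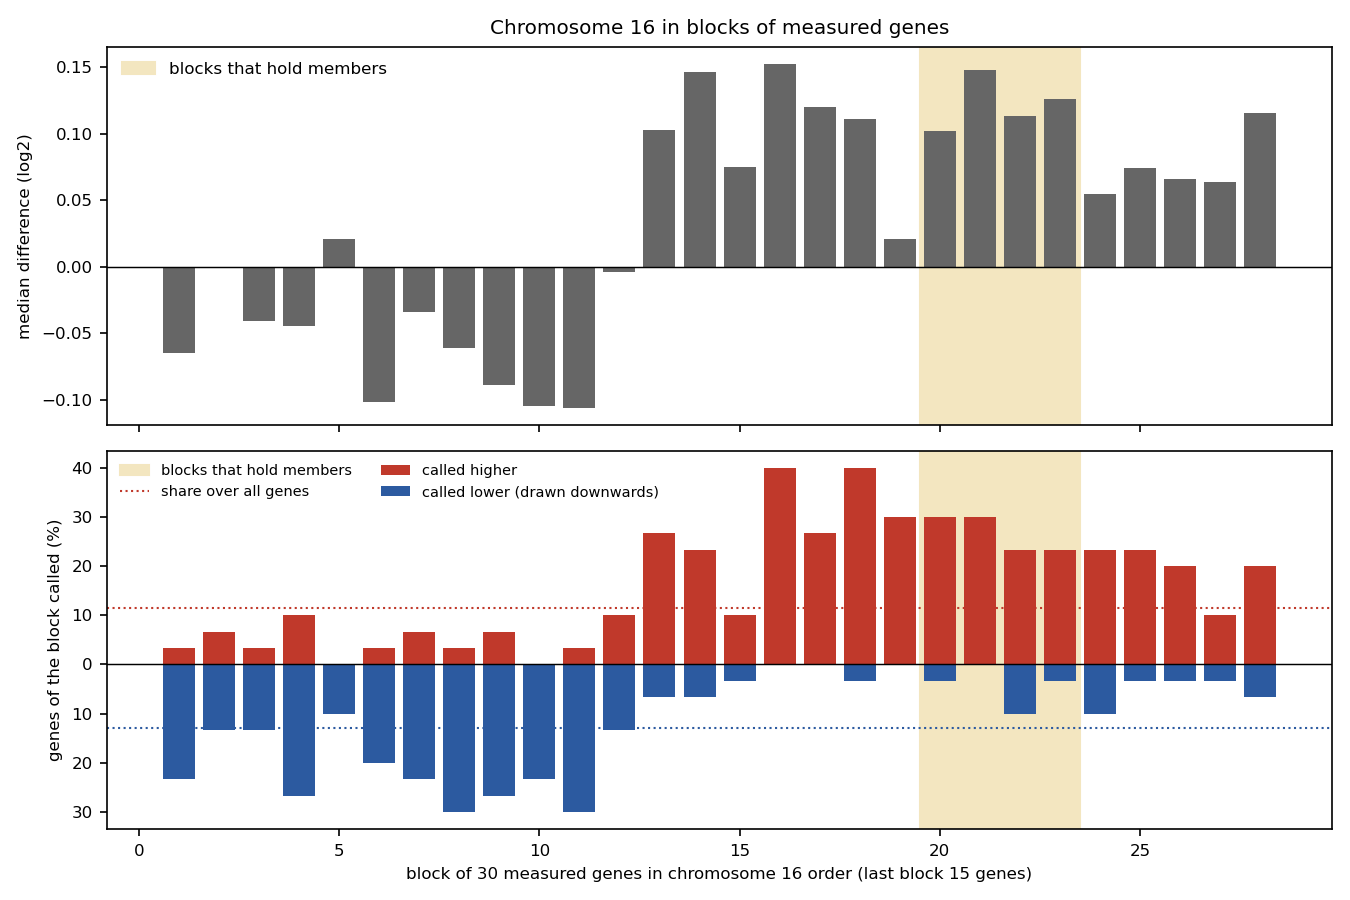
Chromosome 16 in 28 blocks of 30 consecutive measured genes (the last has 15), with the median log2 difference of a block above and the share of its genes called higher (red) or lower (blue, drawn downwards) below. Dotted lines are the shares over all genes (11.5% and 13%) and the shaded blocks hold the members, which sit within a longer run of positive medians that starts at block 13.

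Promoter sequence was a feature that the choice of members did not use. RefSeq promoters (GRCh38.p14, 250 bases before to 50 after the first start listed for a gene) were found for 44 of the 59 measured members, 17 of them called higher. A CpG observed-to-expected ratio over 0.6, a usual criterion for a CpG island, was present in 40 of 44 (90.9%), against 65.7% of 15843 protein-coding promoters. Exceptions included PLEKHG4, at 0.07, although it was called. The letters GGGCGG, the core of Sp-family sites, stood on either strand in 72.7% of members and 58.5% of protein-coding promoters, and CCAAT in 45.5% and 36.4%. TATAAA stood in 2.27% and 9.63%, GCATGCG in 4.55% and 5.14%, GGAAA in 63.6% and 59.4% and CACCTG in 22.7% and 19.9%. Among the 17 members called higher, GGGCGG stood in 58.8%, near the protein-coding share, and CCAAT in 41.2%. The CpG ratio was over 0.6 in 94.1% of the 17. No test was made of these shares, and a match is not a binding site.

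The letters CCGGAAG, the core bound by ETS-family factors, stood on either strand in 13 of 44 member promoters (29.5%) against 14.2% of protein-coding promoters. None of the letter strings searched contains another, and partial overlaps were not counted. Of the 13 genes 6 were called higher and 7, such as EDC4 and COG4, were not. Of all 44 member promoters 17 belong to members called higher, and a link between these letters and the calls was not tested. The 6 are shown as 29 bases each, 5′ to 3′ on the strand that reads CCGGAAG, which is in capitals, because they are called members that share these letters.
TMEM208 (chr16:67227117-67227145, strand +): ttcggtctgcgCCGGAAGtgcatgagctg
ATP6V0D1 (chr16:67481240-67481268, strand -): cgcgcagccacCCGGAAGccgggcaccgc
THAP11 (chr16:67842231-67842259, strand +): acacacccgccCCGGAAGtgagccgcttc
CHTF8 (chr16:69132592-69132620, strand -): caggctctgccCCGGAAGtgctcctggcg
NIP7 (chr16:69339566-69339594, strand -): ccccttgtggtCCGGAAGggaagtgacgt
DDX19A (chr16:70346873-70346901, strand -): cctcacgcggaCCGGAAGcggcggtgagc
Along each gene, the most upstream base of the letters lies 2 bases before the start of TMEM208, 19 for DDX19A and 21 for CHTF8. It lies 78 bases before the start of THAP11, 100 for ATP6V0D1 and 195 for NIP7. The site listed for NIP7 also lies in the promoter of COG8, which was not called.

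Some neighbours start back to back, and their differences were about as far apart as those of all adjacent measured genes. Within 1000 bases, 6 pairs of measured protein-coding genes in the stretch faced apart. The absolute gap between the differences of the 2 genes was 0.21 at the median over these pairs and 0.20 over all 98 adjacent pairs of measured genes. The clearest contrast was CHTF8, which rose, and UTP4, a nucleolar protein for ribosome assembly, which fell by 0.21 ± 0.05 (interval -0.34 to -0.09), although their starts are 61 bases apart. UTP4 was not a member, was singled out after its value was seen, and lost its call without HS3ST2 replicate 1, HS3ST2 replicate 2 or control replicate 2. NIP7 rose while COG8, 208 bases away, was at -0.01, and DDX28 rose while DUS2, 52 bases away, was at 0.04 ± 0.05. For SLC7A6OS and PRMT7, 73 bases apart, the differences were 0.17 and -0.04. These gaps between neighbours were not tested.

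The bases between these starts are shown because both genes of a pair start from them, in opposite directions. They are read on the plus strand of GRCh38.p14, and capitals mark the ETS core letters, the CCAAT letters and the Sp-family letters given above, on either strand.
DDX28 to DUS2 (chr16:68023233-68023283): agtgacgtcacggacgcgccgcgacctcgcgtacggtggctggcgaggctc
SLC7A6OS to PRMT7 (chr16:68310947-68311018): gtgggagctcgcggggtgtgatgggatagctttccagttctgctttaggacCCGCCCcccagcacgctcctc
CHTF8 to UTP4 (chr16:69132589-69132648): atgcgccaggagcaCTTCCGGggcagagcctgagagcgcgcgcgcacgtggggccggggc
COG8 to NIP7 (chr16:69339565-69339771): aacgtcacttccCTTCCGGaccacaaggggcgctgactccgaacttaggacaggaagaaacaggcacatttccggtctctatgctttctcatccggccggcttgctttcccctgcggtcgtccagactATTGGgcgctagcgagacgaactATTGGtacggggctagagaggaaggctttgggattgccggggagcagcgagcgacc
The stretch between CHTF8 and UTP4 holds 1 CCGGAAG and that between COG8 and NIP7 holds 1 CCGGAAG and 2 CCAAT, so the called and the uncalled gene of the latter pair lie on either side of the same letters.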

How the data were processed

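The deposited table holds 54675 probe sets on 6 Affymetrix arrays as log2 values. The submitters' processing notes name RMA. The deposited log2 values are centred per probe set: the median of the 6 values was 0 within 1e-06. Centring software, log base (taken as 2) and array build are not stated in the labels or headers.

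Control probe sets (62) were set aside. Probe sets with 1 symbol (41091) were averaged per gene, named through current gene records (41037 matched) and compared by limma 3.58.1 (lmFit, eBayes, R 4.3.3) over 19775 genes and over 54613 probe sets. Differences are HS3ST2-labelled minus control, with SE and n = 3 per group. Simulated arrays with planted changes checked the script. Gene order came from RefSeq (GRCh38.p14).

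The members, role lists and named genes were chosen with earlier results of these data known. Named were the 10 largest called rises, up to 6 called falls, 9 genes by name, up to 2 more per role, CDH1, CDH3 and the 5 largest changes among other genes of the stretch; remaining members are given by value, and further genes were added after their values were seen. Dim-probe filters and background correction need levels and were not run. Arrays give no counts, and their number limits the precision.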

Additional observations from a re-analysis of the deposited data

Results flagged for a closer look

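A probe set outside the member rule carried a signal. It names both NUTF2 and its pseudogene NUTF2P4, and was higher in the HS3ST2-labelled arrays by 0.31 ± 0.07 log2 (SE, n = 3 per group, called by limma). Its control arrays were at -0.24, -0.10 and -0.11 and its HS3ST2-labelled arrays at 0.13, 0.24 and 0.10. The other probe set for the same 2 names was at 0.32 ± 0.18 and was not called. Which of the 2 transcripts gave the signal was not tested.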

How the results depend on the processing

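Members called higher numbered 18, and 12 to 15 when 1 array was left out (8 members were called in all 6 such fits). In those fits 8.74% to 9.60% of all genes were called higher, against 11.5% with all 6 arrays. Members called higher numbered 21 with the probe set of largest SD, where 12.4% of all genes were. They numbered 23 in the fit on probe sets, counting members with at least 1 called. At an adjusted p under 0.10 they numbered 24, and under 0.01 they numbered 7, by other cut-offs on the same fit. The reasons for changes between fits were not tested. Members called lower numbered 1, and 1 to 2 over left-out arrays, where TPPP3 joined without HS3ST2 replicate 2. They numbered 2 with the probe set of largest SD and in the fit on probe sets, where SNTB2 joined CALB2. Without _x_at and _s_at probe sets, which leaves 46 members and drops CALB2, limma called 0 lower (0 at an unadjusted p under 0.05) and 12 higher, and DDX19A was at -0.030. The members' median was 0.13 to 0.15 over left-out arrays, 0.17 with the probe set of largest SD and 0.14 without CALB2, the last chosen after seeing the data. Other genes of the stretch called higher numbered 10 to 12 and lower 1 to 3 over left-out arrays, with a median of 0.12 to 0.16. Higher calls there were 8 at an adjusted p under 0.01 and 9, of 36 genes, without _x_at and _s_at probe sets. They were 12 with the replicate block and 13 in the fit on probe sets. With the probe set of largest SD, and at an adjusted p under 0.10, they were 14. Lower calls there were 1 with the replicate block, at an adjusted p under 0.01 and without _x_at and _s_at probe sets. Median centring, quantile normalization, array weights and robust eBayes left each of these counts at its value.

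The replicate numbers were not shown to pair the arrays. Same-numbered arrays had deviations correlated at 0.12, 0.05 and -0.08 over all genes, and control replicate 3 correlated best with HS3ST2 replicate 2 (0.14). With the replicate block 15 members were called higher and 1 lower, and the median stayed 0.14. Among 46 named genes the sign of a called difference turned once, for DDX19A as above.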
